A study of Mus musculus with 8 samples.

Results

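Chemokines are small secreted proteins that guide migrating cells, and 10 chemokine genes were followed here across 8 RNA-seq libraries of a mouse mesenchymal cell line. The genes are Cxcl1, Cxcl2, Cxcl5, Cxcl10, Cxcl12, Cxcl16, Ccl2, Ccl7, Ccl20 and Cx3cl1. They were picked by symbol out of the 31276 genes of the deposited table, with their values in these libraries already known. Their levels and differences are therefore given as a description, with no p-value printed, and all 10 were found. Whether the fits across all genes called a member is stated below, also as a description. In all, 7 of the 10 passed the filter on low values used for the fits across genes, and Cxcl2, Cxcl10 and Ccl20 did not. The filter asked for a mean over the 8 libraries of at least 1 above the lowest value on the deposited log2 scale. Cxcl16 lay just inside it at 1.16, and Ccl20 just outside at 0.93.

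The cells were C3H10T1/2, a multipotent line derived from C3H mouse embryos, at passage 10 to 15 in medium with 10% serum. Every line stably carried a FLAG-HA-tagged histone H3 transgene, so the lines that served as comparison carried a tagged histone too. The transgenes were H3.1 K36M and H3.1 K36R, and H3.3 K36M, H3.3 K36I, H3.3 K36A, H3.3 K36L, H3.3 K36R and unmutated H3.3, written WT. In each mutant, lysine 36 of the histone tail, which methyltransferases modify, is exchanged for the residue whose letter ends the name. Each transgene had 1 line and 1 library, the endogenous H3 genes remained in the cells, and no unmutated H3.1 line is analysed here. Nothing in the labels says that a line was derived or grown more than once.

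Chemokines bind receptors that couple to G proteins on leukocytes and on some stromal and epithelial cells. Fibroblast-like mesenchymal cells make several of them. Cxcl12 is made constantly by many mesenchymal cells and retains blood cell precursors in bone marrow. Others, such as Cxcl1 and Ccl2, are transcribed in response to inflammatory signals such as interleukin-1 and TNF through the transcription factor NF-kB, and Cxcl10 in response to interferons.

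Promoter sequences are shown for the members with a window in RefSeq's mouse annotation (GRCm38.p6) in which motifs of these pathways were searched, because several members differed between libraries by more than 10 times. Capitals mark matches to the NF-kB consensus and, in Cxcl10, also to a repeat of GAAA with any 2 bases between, the core of the interferon-stimulated response element. All bases lie upstream of annotated exons, and the last line shows Cxcl12, the most abundant member, whose window held neither motif.
Cxcl1, chr5:90891091-90891240, plus strand: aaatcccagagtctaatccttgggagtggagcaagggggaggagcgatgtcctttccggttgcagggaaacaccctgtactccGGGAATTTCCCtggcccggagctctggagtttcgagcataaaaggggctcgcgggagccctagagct
Cxcl2, chr5:90903721-90903870, plus strand: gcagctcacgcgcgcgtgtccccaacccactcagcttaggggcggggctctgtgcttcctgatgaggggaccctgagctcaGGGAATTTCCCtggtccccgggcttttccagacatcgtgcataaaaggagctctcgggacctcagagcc
Cxcl10, chr5:92348890-92349112, minus strand: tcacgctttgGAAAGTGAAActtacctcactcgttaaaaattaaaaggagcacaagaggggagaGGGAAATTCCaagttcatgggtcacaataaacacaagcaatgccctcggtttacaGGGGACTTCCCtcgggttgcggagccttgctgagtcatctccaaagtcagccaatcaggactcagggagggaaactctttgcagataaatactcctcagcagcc
Ccl20, chr1:83116616-83116765, plus strand: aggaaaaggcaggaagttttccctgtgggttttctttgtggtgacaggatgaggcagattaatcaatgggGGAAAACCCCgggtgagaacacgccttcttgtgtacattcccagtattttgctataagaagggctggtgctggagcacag
Cxcl12, chr6:117168385-117168534, plus strand: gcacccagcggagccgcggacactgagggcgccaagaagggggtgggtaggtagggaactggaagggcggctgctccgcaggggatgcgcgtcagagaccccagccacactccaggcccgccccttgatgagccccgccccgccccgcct

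Both strands of the 250 bases before each start were searched, and overlapping matches on opposite strands at Cxcl1, Cxcl2 and Cxcl10 are marked as 1 stretch. The NF-kB consensus was found in 4 of the 6 member windows searched, and in 7.25% of 32851 windows of the same length across the mouse genome (2382 windows). The repeat of GAAA was found in 1 of the 6, that of Cxcl10, and in 2.98% of all windows (978). The matches began 71 bases before the start at Cxcl1, 97 at Cxcl2, 159 and 104 at Cxcl10 and 80 at Ccl20. The window of Cx3cl1 held neither motif, and Cxcl5, Cxcl16, Ccl2 and Ccl7 had no window in the table. A match describes the letters of the window and does not show that a factor binds there.

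The H3.1 K36M library held 45448249 reads and that of H3.1 K36R 53199065, with 61139941 to 68020958 in those of the H3.3 lines. Levels below are normalised reads, the reads recovered from the deposited values divided by the size factor of the library. All 8 mesenchymal markers examined, among them Col1a1, Vim and Prrx1, passed the filter in these cells. Of 9 leukocyte markers found, Cd68 and Lyz2 passed it, Cd3e had 0 reads in all libraries, and the pan-leukocyte gene Ptprc had at most 7.89 normalised reads. The summed leukocyte markers ran from 507 to 936 normalised reads in the H3.1 lines and from 304 to 596 in the H3.3 lines. The 4 epithelial markers summed to 561 to 711 in the H3.1 lines and 772 to 7844 in the H3.3 lines, without overlap. Of these 4, only Krt14 separated the groups, with 18.4 to 31.7 in the H3.1 lines against 67.8 to 7403. Cdh1 overlapped, with 527 to 687 against 292 to 1065, and Epcam and Krt5 did not pass the filter. The mesenchymal sums, 507465 to 626120 in H3.1 and 430897 to 706481 in H3.3, overlapped, as did those of 4 endothelial markers, 14.5 to 37.2 and 28.9 to 84.8. Of the mesenchymal markers, Pdgfra was higher in the H3.1 lines without overlap, at 10213 to 16396 against 6275 to 8570. Prrx1 was too, at 32524 to 35800 against 24077 to 29879, and the ranges of the other mesenchymal markers overlapped. The part of these markers in the chemokine levels was not tested. The H3.1 lines stood apart from all H3.3 lines on the second principal component over the genes past the filter (25.1% of the variance), with scores of -33.8 and -36.1 against -6.7 to 25.3. Whether this follows the histone or handling that both H3.1 lines shared cannot be told apart. In RNA from whole cultures, more cells making a transcript and more transcript per cell cannot be told apart either.

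Cxcl1, Cxcl2 and Cxcl5 belong to the CXC chemokines that attract neutrophils through the receptor CXCR2, and lie in a cluster on chromosome 5. Cxcl5 (chr5:90759360-90761624, plus strand) varied most of all members. H3.1 K36M had 29565 normalised reads and H3.1 K36R 10180.1, against 1059 in H3.3 K36M, 466 in H3.3 K36I, 267 in H3.3 K36A, 115 in H3.3 K36L, 300.1 in H3.3 K36R and 199 in H3.3 WT. The lower of the H3.1 lines was 9.61 times the highest H3.3 line. Among the H3.3 lines, K36M and K36I held more Cxcl5 than the other 4.

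Cxcl1 (chr5:90891241-90893115, plus strand) separated the lines differently. H3.1 K36M had 6136 normalised reads and H3.1 K36R 7290.4, against 732 in H3.3 K36M, 395 in H3.3 K36I, 749 in H3.3 K36A, 397 in H3.3 K36L, 911 in H3.3 K36R and 888 in H3.3 WT. The lower H3.1 line was 6.74 times the highest H3.3 line, and K36M and K36I did not separate from the other H3.3 lines. The ratio of Cxcl5 to Cxcl1 in normalised reads, uncorrected for gene length, was 4.82 for H3.1 K36M and 1.4 for H3.1 K36R. It was 1.45 in H3.3 K36M and 1.18 in H3.3 K36I, and 0.224 to 0.357 in the other H3.3 lines. Cxcl2 (chr5:90903871-90905938, plus strand), whose printed window carries the same NF-kB match as that of Cxcl1, was at the edge of detection. It had 2 reads each in H3.1 K36M and H3.3 K36M and 0 in the other 6 libraries, where a count of 0 allows up to 3 reads, or 2.55 to 3.28 normalised reads.

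Ccl2 and Ccl7 attract monocytes through CCR2 and lie side by side on chromosome 11. Ccl2 (chr11:82035571-82037453, plus strand) reached 30706 normalised reads in the H3.1 K36M line and 6184 in the H3.1 K36R line, against 805 in H3.3 K36M, 6102 in H3.3 K36I, 1162 in H3.3 K36A, 1279 in H3.3 K36L, 1523 in H3.3 K36R and 475 in H3.3 WT. The 95% Poisson interval of H3.1 K36R, 6024 to 6347, overlapped that of H3.3 K36I, 5962 to 6245, while H3.3 K36M lay among the other H3.3 lines. Ccl7 (chr11:82045712-82047525, plus strand) reached 8999 normalised reads in the H3.1 K36M line and 2773 in the H3.1 K36R line, against 316 in H3.3 K36M, 1827 in H3.3 K36I, 493 in H3.3 K36A, 507 in H3.3 K36L, 419.7 in H3.3 K36R and 274 in H3.3 WT. Its order was close to that of Ccl2, with H3.1 K36M highest, WT lowest and K36I apart from the other H3.3 lines. The ratio of Ccl2 to Ccl7 in normalised reads stayed between 1.73 in H3.3 WT and 3.63 in H3.3 K36R, while Ccl2 itself spanned 64.7 times.

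Ccl20 (chr1:83116766-83119167, plus strand), the ligand of CCR6 on lymphocytes and dendritic cells, was near absent from most H3.3 lines. The H3.1 K36M line had 137 normalised reads and the H3.1 K36R line 524, against 3.82 in H3.3 K36M, 1.70 in H3.3 K36I, 0 in H3.3 K36A, 0 in H3.3 K36L, 41.8 in H3.3 K36R and 3.72 in H3.3 WT. The H3.1 values rest on 104 and 479 reads and that of H3.3 K36R on 44. The K36R lines were the highest within each histone, the reverse of Cxcl5.

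Cxcl12 (chr6:117168535-117181367, plus strand), which signals through CXCR4 and is scavenged by ACKR3, was abundant everywhere. The H3.1 K36M line had 47407 normalised reads and the H3.1 K36R line 58558, against 38607 in H3.3 K36M, 37917 in H3.3 K36I, 32155 in H3.3 K36A, 16184 in H3.3 K36L, 24178 in H3.3 K36R and 12361 in H3.3 WT. The groups by histone did not overlap, but the lowest H3.1 line was 1.23 times the highest H3.3 line. K36M, K36I and K36A stood above the other H3.3 lines, and WT was lowest of all. Cxcl12 made up 38.2% of the reads of the 10 genes for H3.1 K36M and 67.1% for H3.1 K36R, and 78.7% to 90.0% in the H3.3 lines.

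Cx3cl1 and Cxcl16 are the 2 chemokines made as transmembrane proteins and released by the proteases ADAM10 and ADAM17. Cx3cl1 (chr8:94772009-94782427, plus strand) had 1164 normalised reads in the H3.1 K36M line and 1625 in the H3.1 K36R line, against 1462 in H3.3 K36M, 1445 in H3.3 K36I, 857 in H3.3 K36A, 725 in H3.3 K36L, 832 in H3.3 K36R and 769.5 in H3.3 WT. Its highest line was 2.24 times its lowest, the smallest such ratio among the members past the filter, and the groups by histone overlapped. Cxcl16 (chr11:70453983-70459984, minus strand), the ligand of CXCR6, had 130.1 normalised reads in the H3.1 K36M line and 72.2 in the H3.1 K36R line, against 36.3 in H3.3 K36M, 20.4 in H3.3 K36I, 32.6 in H3.3 K36A, 36.05 in H3.3 K36L, 29.4 in H3.3 K36R and 25.1 in H3.3 WT. Here the H3.1 lines were higher and the 6 H3.3 lines lay close together. Its exons share 552 bases with Zmynd15 on the opposite strand, and with the use of strand in counting not given, reads from that stretch cannot be assigned.

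Cxcl10 (chr5:92346638-92348889, minus strand), an interferon-induced ligand of CXCR3 on T cells, had very few reads. There were 12 for H3.1 K36M and 1 for H3.1 K36R, against 6 in H3.3 K36M, 4 in H3.3 K36I, 2 in H3.3 K36A, 4 in H3.3 K36L, 2 in H3.3 K36R and 0 in H3.3 WT. In normalised reads H3.1 K36M reached 15.8 with an interval of 8.15 to 27.5, which overlaps that of H3.3 K36M, 2.10 to 12.5. It also overlaps those of H3.3 K36I, 0.93 to 8.71, and H3.3 K36L, 1.06 to 9.98. The intervals of H3.1 K36R, H3.3 K36A, H3.3 K36R and H3.3 WT lay below it, ending at 6.09, 6.92, 6.86 and 3.43. These intervals cover counting error only. Differences in Cxcl10 between the other lines were not detectable at this depth.

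**Figure D1:**
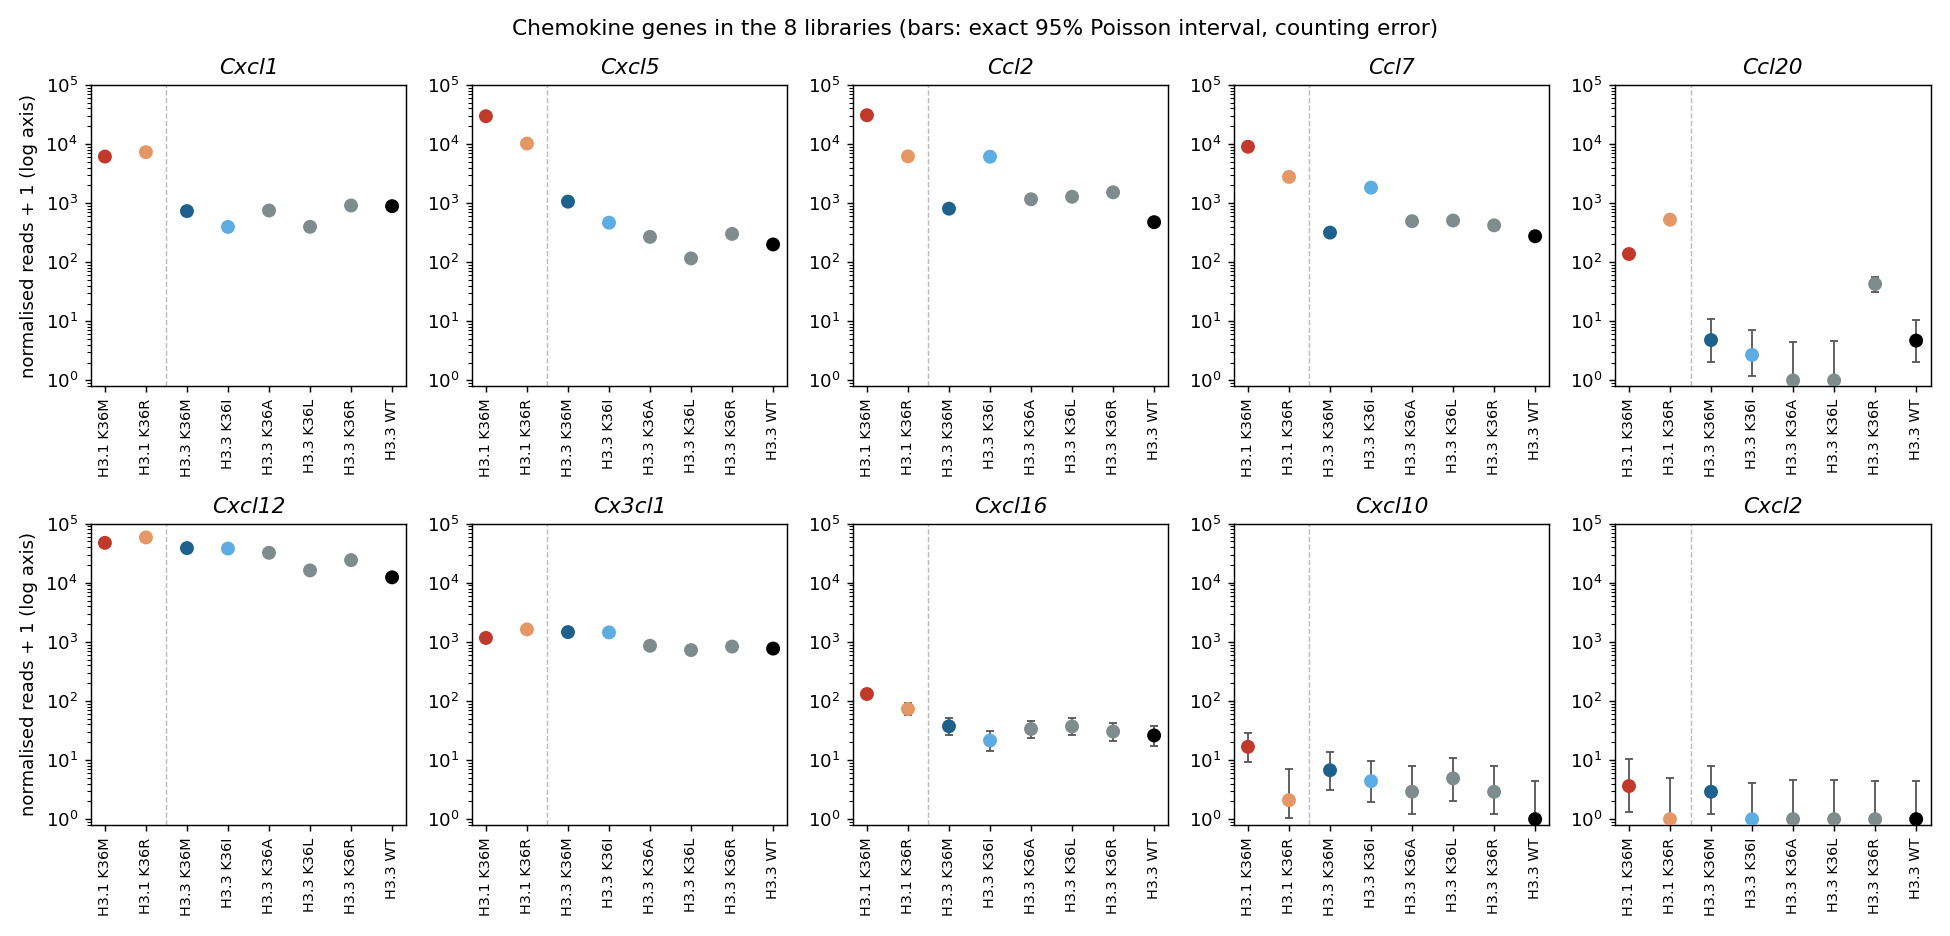
Normalised reads plus 1 (log axis) of the 10 chemokine genes in the 8 libraries, 1 point per library, with exact 95% Poisson intervals for counting error as bars; the dashed line parts the 2 H3.1 libraries from the 6 H3.3 libraries. Cxcl1, Cxcl5 and Ccl20 are higher in both H3.1 libraries, Ccl2 and Ccl7 are also high in H3.3 K36I, and Cxcl2 and Cxcl10 sit near 0.

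Per kilobase of annotated exon the levels could be set against each other. The medians over the 8 libraries ran from 4285 normalised reads per kilobase for Cxcl12 through 1231 for Ccl2, 624 for Ccl7, 436 for Cxcl1, 257 for Cx3cl1 and 206 for Cxcl5, to 11.4 for Cxcl16, 2.65 for Ccl20, 1.18 for Cxcl10 and 0 for Cxcl2. Neighbours in that order overlapped in their ranges over the lines, except Cxcl5 (61.7 to 15870 per kilobase) and Cxcl16 (6.76 to 43.1). The order also changed between lines. In H3.1 K36M, Ccl2 led with 26982 per kilobase, ahead of Cxcl5 with 15870, Ccl7 with 11235 and Cxcl12 with 5798, and in H3.3 K36I Ccl2 with 5362 stood above Cxcl12 with 4638. The 10 genes took 0.208% of all reads for H3.1 K36M and 0.150% for H3.1 K36R, against 0.0257% in H3.3 WT to 0.0833% in H3.3 K36I among the H3.3 lines.

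Set against H3.3 WT, the mutant lines held 1 to 7 members higher by 1 or more and none lower by 1 or more on the deposited log2 scale, which compresses differences at few reads. On the log2 of normalised reads plus 1, Cxcl1 was 1.17 lower than WT in H3.3 K36I and 1.16 lower in H3.3 K36L, and Ccl20 was more than 1 lower in H3.3 K36A and K36L, with 0 reads in each against 4 in WT. Members at least 1 higher numbered 7 of 10 in H3.1 K36M (6.08% of all genes past the filter), 6 in H3.1 K36R (2.08%), 2 in H3.3 K36M (4.28%), 3 in H3.3 K36I (3.45%), 2 in H3.3 K36A (0.76%), 1 in H3.3 K36L (0.521%) and 1 in H3.3 K36R (1.06%). Of all genes, 4.23% were at least 1 lower than WT in H3.1 K36M, 1.25% in H3.1 K36R, 4.41% in H3.3 K36M, 4.17% in H3.3 K36I, 1.32% in H3.3 K36A, 0.507% in H3.3 K36L and 0.696% in H3.3 K36R. These values chose the members, the 7 comparisons share the WT library, and each has 1 library a side, so nothing is read from the counts. In H3.3 K36M the 2 genes were Cxcl5 (1.93 higher) and Cxcl12 (1.63 higher). In H3.3 K36I they were Ccl2 (3.39), Ccl7 (2.33) and Cxcl12 (1.61). Ccl2 was at least 1 higher in every mutant line except H3.3 K36M, where it was 0.64 higher, and WT was the lowest of the 8 lines for Cxcl10, Cxcl12, Ccl2 and Ccl7, as it was for 9.62% of all genes past the filter. Cxcl1 was 0.98 lower in H3.3 K36I and 0.97 lower in H3.3 K36L than in WT.

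**Figure D2:**
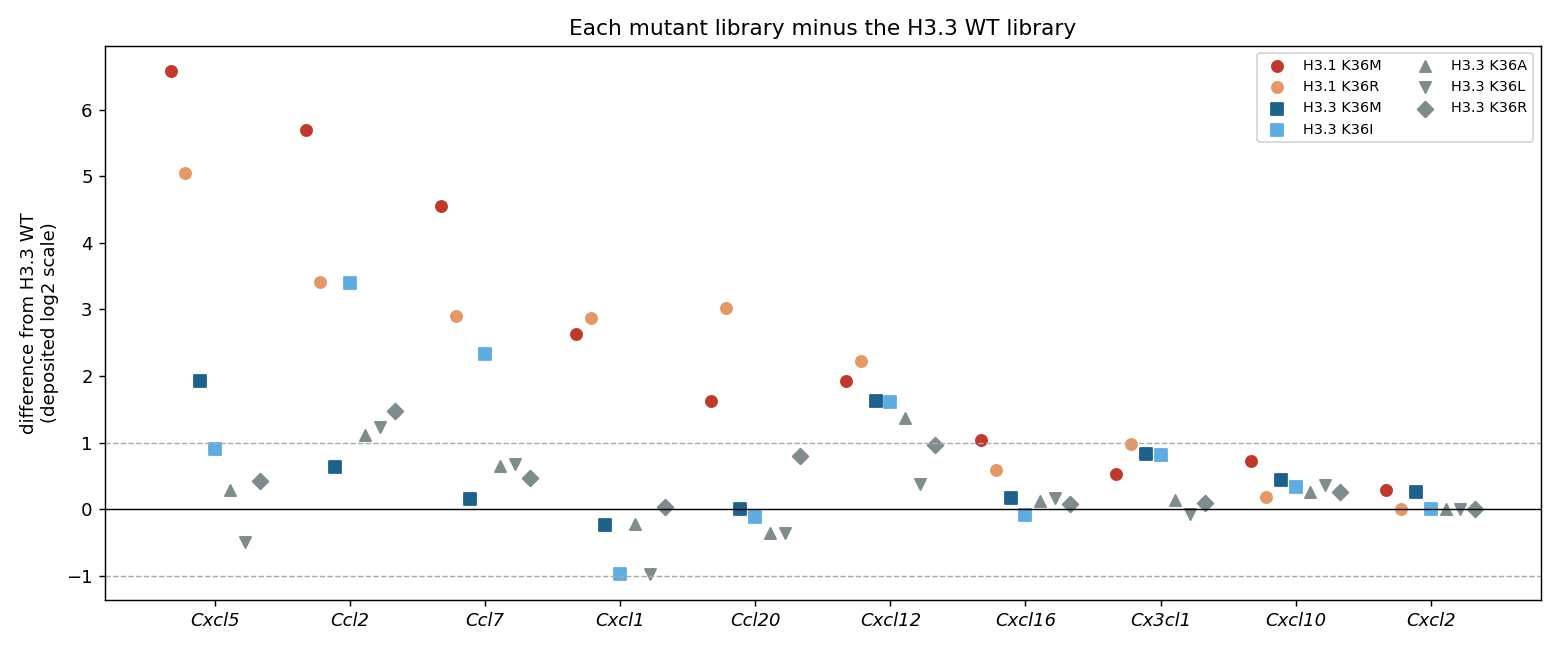
Difference of each mutant library from the H3.3 WT library on the deposited log2 scale, by gene, 1 point per library; the dashed lines mark differences of 1 and -1. Cxcl5 is 6.58 higher in H3.1 K36M, Ccl2 is 3.39 higher in H3.3 K36I, and no point lies below -1.

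K36M and K36R were present in both histones, and their differences were not alike. K36M minus K36R for Ccl2 was 2.29 between the H3.1 lines and -0.83 between the H3.3 lines on the deposited log2 scale. For Ccl7 it was 1.66 in H3.1 and -0.32 in H3.3. Cxcl5 was higher in K36M by about the same amount in both, 1.53 in H3.1 and 1.51 in H3.3. Ccl20 was lower in K36M in both, with -1.39 in H3.1 and -0.80 in H3.3. Cxcl12 gave -0.30 in H3.1 and 0.67 in H3.3, and Cx3cl1 gave -0.44 in H3.1 and 0.73 in H3.3. Members at least 1 apart numbered 3 higher and 1 lower in the H3.1 pair (3.9% and 3.12% of all genes), and 1 higher and 0 lower in the H3.3 pair (3.4% and 4.45%). With 1 line a side, whether the differences themselves differ between the histones was not tested. The same substitution also differed between the histones. H3.1 K36M minus H3.3 K36M was 5.06 for Ccl2, 4.65 for Cxcl5, 4.40 for Ccl7, 2.88 for Cxcl1 and 1.63 for Ccl20, with 5 members at least 1 higher and 0 lower (3.5% and 1.52% of all genes). H3.1 K36R minus H3.3 K36R was 4.63 for Cxcl5, 2.85 for Cxcl1, 2.43 for Ccl7, 2.22 for Ccl20, 1.94 for Ccl2 and 1.27 for Cxcl12, with 6 higher and 0 lower (1.84% and 1.13%). Between the H3.3 lines with K36M and K36I, which most genes did not tell apart (0.584% at least 1 higher and 0.577% lower in K36M), Ccl2 differed by -2.75, Ccl7 by -2.18 and Cxcl5 by 1.02.

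H3.1 and H3.3 lines were compared in a fit over the 14215 genes past the filter, with the K36M or K36I substitution as a term (limma, Benjamini-Hochberg adjusted p under 0.05). The fit called 1567 genes, 11.0% of those tested, with 803 higher in H3.1 (5.65%) and 764 lower (5.37%). The fitted differences on the deposited log2 scale were 5.07 (SE 0.30) for Cxcl5, 3.20 (0.29) for Cxcl1, 3.01 (0.70) for Ccl2, 2.84 (0.51) for Ccl7, 0.99 (0.38) for Cxcl12, 0.72 (0.14) for Cxcl16 and 0.38 (0.23) for Cx3cl1. Of these 7, Cxcl5, Cxcl1, Ccl2, Ccl7 and Cxcl16 were among the genes called, and not all of these calls held under the alternatives. That of Ccl2 was lost without H3.1 K36M, H3.1 K36R, H3.3 K36A, K36L or WT. Those of Ccl7 and Cxcl16 were lost without H3.1 K36M. Leaving out an H3.1 line leaves 1 line in that group. Cxcl16 passed the filter only through the H3.1 lines, with a mean of 1.72 above the lowest value there and of 0.98 in the H3.3 lines. H3.1 and H3.3 values did not overlap for 7 of the 10 members, or 6 of the 7 past the filter, in each case with H3.1 higher, which held for 10.4% of all genes past the filter (22.7% in either direction). The members were picked with these values in view, so both counts are a description and nothing is read from them. Leaving out 1 line at a time moved the difference least for Cxcl5 (4.86 to 5.26) and Cxcl1 (3.06 to 3.34). It ranged from 2.40 to 3.68 for Ccl2, from 2.36 to 3.32 for Ccl7, from 0.31 to 1.55 for Cxcl12 and from 0.495 to 0.99 for Cxcl16. For Cx3cl1 it was 0.93 without H3.1 K36M and -0.29 without H3.1 K36R.

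K36M and K36I are described in the literature as inhibiting the enzymes that methylate H3K36, and the 3 lines with them (H3.1 K36M, H3.3 K36M and H3.3 K36I) were set against the other 5 in the same way. This fit called 1887 genes, 13.3% of those tested, with 917 higher (6.45%) and 970 lower (6.82%). With library medians set equal the split was 1156 higher and 805 lower, and with no filter 1540 and 990. None of the 7 members was among the genes called by limma, and none had an unadjusted p under 0.05. The fitted differences were 2.08 (SE 1.55) for Cxcl5, 1.80 (1.08) for Ccl2, 1.4 (0.96) for Ccl7, 0.73 (0.44) for Cxcl12, 0.50 (0.23) for Cx3cl1, 0.19 (0.25) for Cxcl16 and 0.13 (0.996) for Cxcl1. The H3.1 lines were 1 of the 3 and 1 of the 5. With histone as a covariate the difference of Cxcl5 was 1.41 (SE 0.27), and Cxcl5 was then among the genes called (10.2% of all genes higher and 10.6% lower). Ccl2 was then at 1.396 (0.62), Ccl7 at 1.02 (0.45), Cxcl12 at 0.60 (0.34), Cx3cl1 at 0.45 (0.21) and Cxcl1 at -0.30 (0.26). The 2 classes overlapped for all 10 members, while 21.5% of all genes did not overlap, 10.0% with K36M and K36I higher. Within the 6 H3.3 lines alone, a fit added after seeing the data, K36M and K36I differed from the other 4 by 1.36 (SE 0.34) for Cxcl5, 0.79 (0.09) for Cx3cl1, 1.06 (0.74) for Ccl2, 0.94 (0.35) for Cxcl12 and -0.32 (0.33) for Cxcl1. These differences also describe members picked with the values in view. The summed leukocyte markers were 588 to 936 normalised reads in the K36M and K36I lines against 304 to 507 in the others, and the summed mesenchymal markers 430897 to 507465 against 560426 to 706481. Neither pair of ranges overlapped. Of the mesenchymal markers, Col1a2 was lower in the K36M and K36I lines without overlap, at 126823 to 184387 against 190598 to 294151. Twist1 was higher there without overlap, at 1192 to 1446 against 865 to 1065, and the ranges of the other mesenchymal markers overlapped. Cd68 was higher there, 160 to 241 against 101 to 149, while Lyz2 overlapped, 305 to 679 against 146 to 355. The part of these markers in the differences between the classes was not tested.

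**Figure D3:**
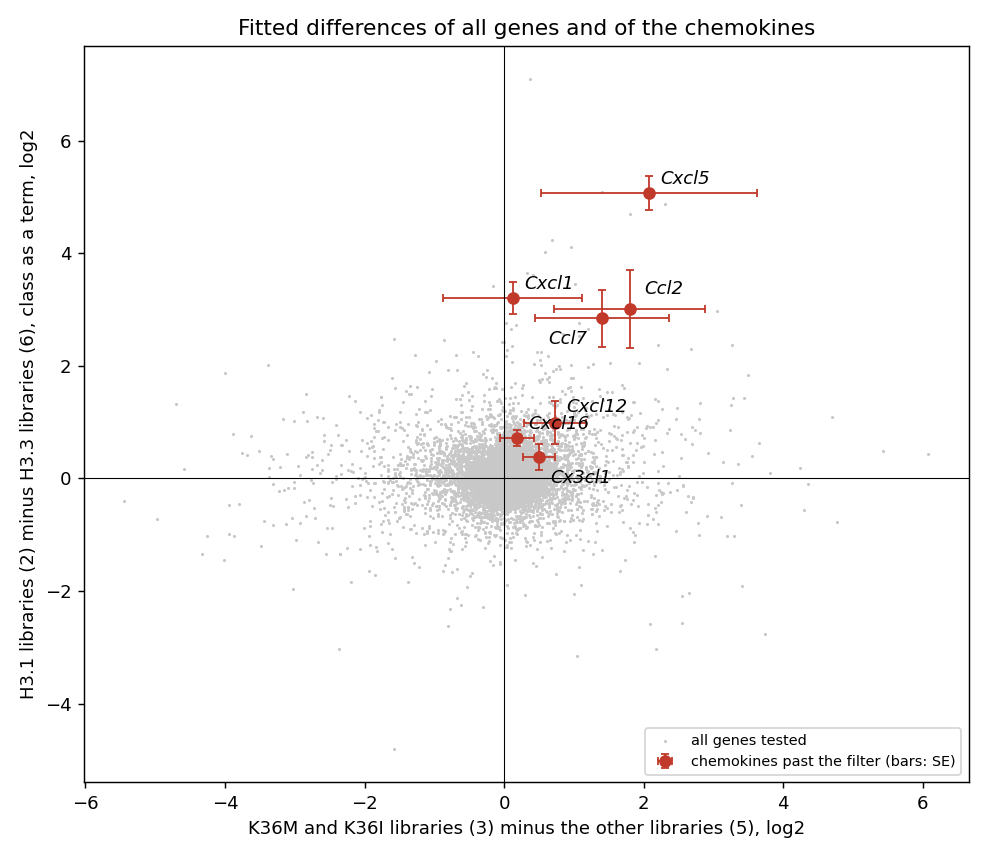
Fitted differences on the deposited log2 scale of the 14215 genes tested (grey) and of the 7 chemokines past the filter (red, bars are SE): K36M and K36I libraries minus the other libraries on the horizontal axis, H3.1 minus H3.3 libraries on the vertical axis. Cxcl5 lies at 2.08 and 5.07 and Cxcl1 at 0.13 and 3.20, and the horizontal bars of Cxcl5 and Cxcl1 are wider than their vertical bars.

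The other genes of the chemokine system were read in the same fits from 7 lists of 106 genes, 105 of them in the table and 59 past the filter. The lists were chosen with earlier results of these data known. Counts and p-values of list genes in both fits therefore describe the lines and are no independent support. Between H3.1 and H3.3 lines, 19 of the 59 rose in H3.1 and none fell, against 5.65% higher and 5.37% lower among all genes, and the median difference was 0.35 against 0.00 over all genes tested. Bcl3 alone of the 19 passed the filter only through the H3.1 lines, and among the 57 list genes that reached it in both groups 18 rose. Without the H3.1 K36M line, which leaves 1 H3.1 line, fewer of the 59 and fewer of all genes were called. In the 4 libraries with K36M or K36R alone, a fit with 1 residual degree of freedom, limma called 12 genes of all, 1767 had an unadjusted p under 0.05, and no gene of the lists passed.

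Of the NF-kB factors and their inhibitors, 8 of 15 tested rose in H3.1 and none fell (median 0.65). Nfkbia, the inhibitor IkB-alpha and itself an NF-kB target, had 4800 and 5288 normalised reads in the H3.1 K36M and H3.1 K36R lines, against 1219 to 2201 in the H3.3 lines. Its difference was 1.58 (SE 0.13, adjusted p = 0.00142). Bcl3, a nuclear IkB protein, had 149.8 and 187 in the same 2 lines against 10.4 to 30.2 (difference 1.44). Its mean in the H3.3 lines lay under the filter, at 0.76 above the lowest value against 2.17 in the H3.1 lines, so its difference is given as a description. Relb, a subunit of the non-canonical NF-kB dimer, had 986 and 1120 against 307 to 403 (1.34, SE 0.12, adjusted p = 0.00145). Nfkbiz, which helps NF-kB activate secondary response genes, had 4243 and 5895 against 1432 to 3199 (1.18, SE 0.12, adjusted p = 0.00295). For each of these 4 genes both H3.1 lines stood above all H3.3 lines, as they did for 10.4% of all genes past the filter. The 4 were named for the largest differences of their list, so nothing is read from this likeness to Cxcl1 and Cxcl5.

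Among the cytokines that induce chemokines, their receptors and adaptors, 6 of 20 tested rose in H3.1 and none fell (median 0.33). Il6, an inflammatory cytokine, had 647 and 719 normalised reads in the H3.1 K36M and H3.1 K36R lines, against 22.1 to 178.5 in the H3.3 lines (difference 2.18, SE 0.25, adjusted p = 0.00407). Tlr2, a receptor for bacterial lipoproteins, had 1782 and 1449.8 against 278 to 628 (1.63, SE 0.20, adjusted p = 0.00515). Tnfrsf1b, a TNF receptor, rose by 0.64 (SE 0.10, adjusted p = 0.012) with overlapping groups, and Ifnar2, a chain of the type I interferon receptor, by 0.40 (SE 0.10, adjusted p = 0.045). Without H3.1 K36M or without H3.1 K36R, Tnfrsf1b did not pass (differences of 0.61 to 0.67 and adjusted p up to 0.2 over the alternatives). Ifnar2 did not pass when any 1 of the 8 lines was left out (differences 0.21 to 0.56, adjusted p up to 0.415).

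Of the 5 interferon response factors, 2 rose in H3.1 (median 0.55). Irf9, the DNA-binding part of the complex that carries the type I interferon response, had 1527 and 1817 normalised reads in the H3.1 K36M and H3.1 K36R lines, against 560.2 to 1140.4 in the H3.3 lines (difference 0.94, SE 0.20, adjusted p = 0.0281). Irf1, an interferon-induced factor, rose by 0.67 (SE 0.16, adjusted p = 0.037). Irf9 did not pass without H3.1 K36M, H3.1 K36R or H3.3 K36I (adjusted p up to 0.325), and Irf1 did not pass without H3.1 K36R, H3.3 K36M, K36I, K36A, K36L or WT (up to 0.347). Cxcl10, an interferon target, stayed at or under 12 reads in all of these lines.

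Of 7 genes that control the decay of inflammatory transcripts, 2 rose in H3.1 (median 0.18). Zc3h12a, the RNase regnase-1 that cuts transcripts such as Il6, had 1355 and 785 normalised reads in the H3.1 K36M and H3.1 K36R lines, against 165 to 255 in the H3.3 lines (difference 1.80, SE 0.13, adjusted p = 0.000641). Zfp36, which encodes tristetraprolin, a protein that destabilises AU-rich transcripts, rose by 0.39 (SE 0.08, adjusted p = 0.0281) with overlapping groups. It did not pass without H3.1 K36M, H3.1 K36R, H3.3 K36I, K36L or WT (adjusted p up to 0.429). Among the other chemokine ligands 4 of 27 found were tested and none passed (1 had an unadjusted p under 0.05). The largest differences were 1.04 (SE 0.37, adjusted p = 0.104) for Ccl9, with 4990.4 normalised reads for H3.1 K36M and 1309 for H3.1 K36R against 734 to 1991 in the H3.3 lines, and 0.25 (SE 0.13, adjusted p = 0.242) for Ccl25. Neither sheddase of Cx3cl1 and Cxcl16 passed, with 0.12 (SE 0.06, adjusted p = 0.243) for Adam17 and 0.11 (SE 0.10, adjusted p = 0.487) for Adam10, and neither had an unadjusted p under 0.05.

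**Figure D4:**
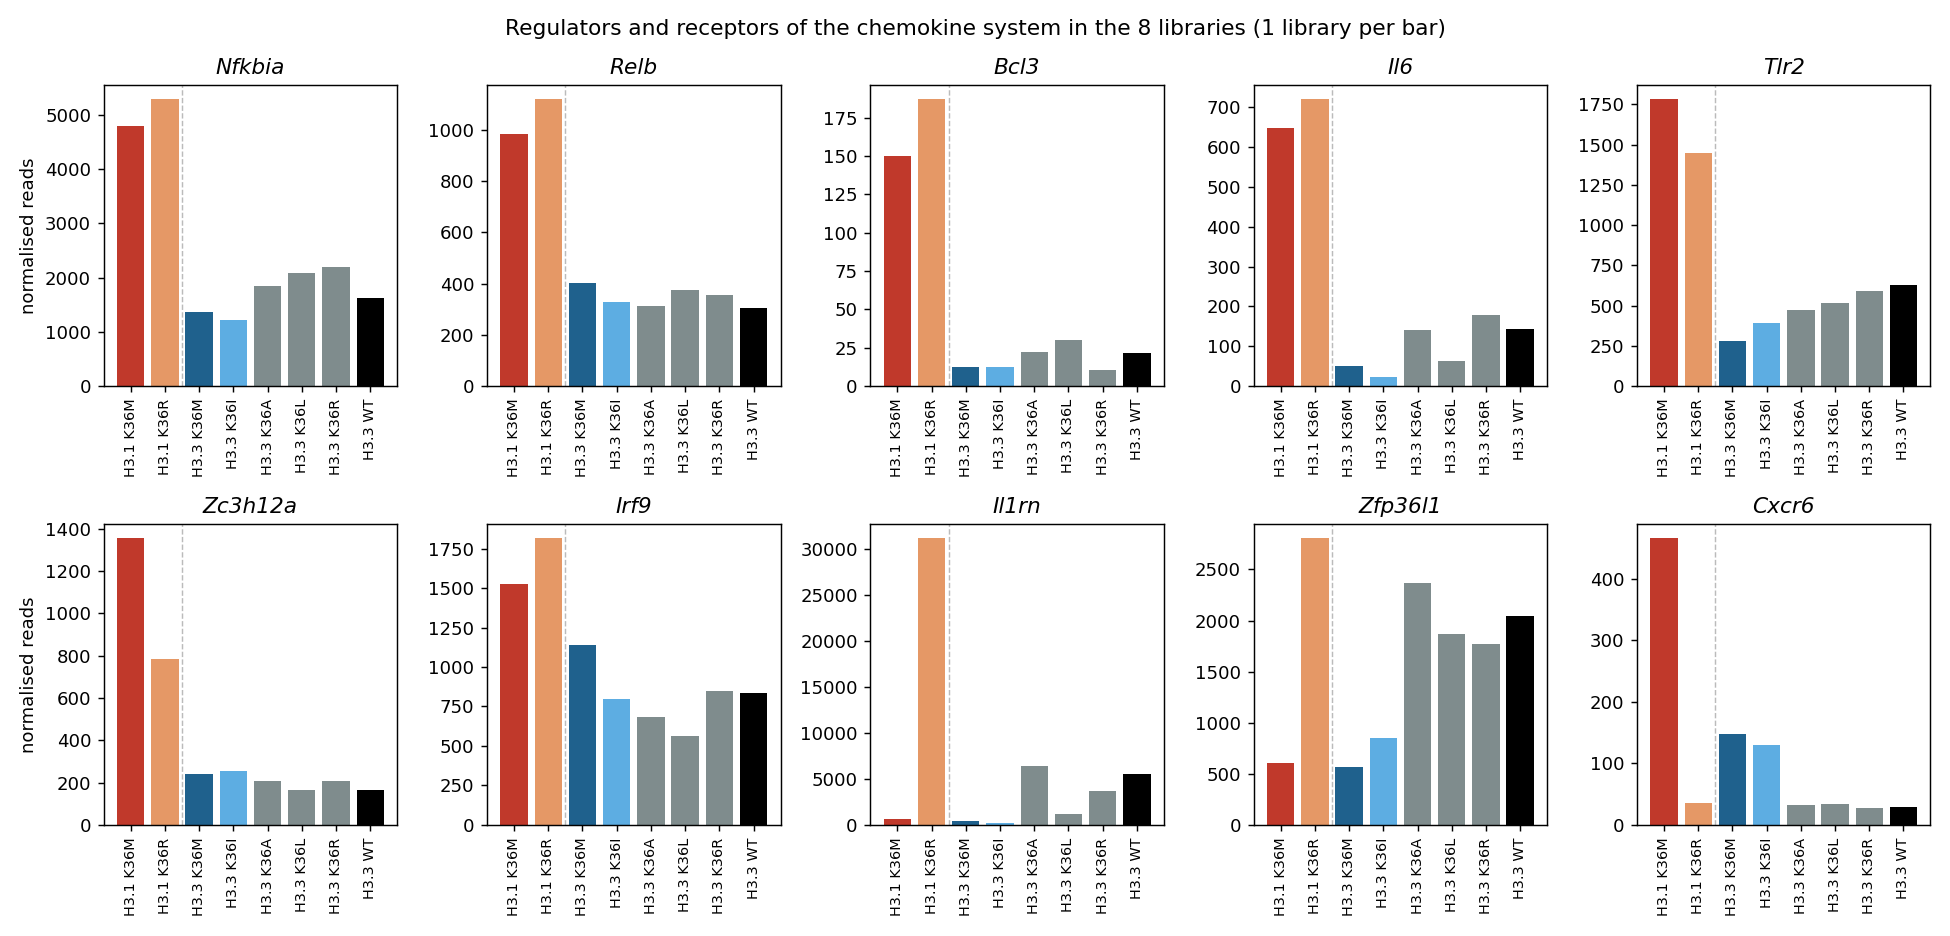
Normalised reads of 10 regulators and receptors of the chemokine system, 1 bar per library on axes that start at 0, with a dashed line between the 2 H3.1 libraries and the 6 H3.3 libraries. Nfkbia, Relb, Bcl3, Il6, Tlr2, Zc3h12a and Irf9 are higher in both H3.1 libraries, Zfp36l1 and Il1rn are lower in the K36M and K36I libraries, and Cxcr6 is higher there.

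In the comparison of K36M and K36I lines with the other 5, 11 of the 59 list genes passed, 4 higher and 7 lower, against 6.45% and 6.82% of all genes, with a median difference of 0.01. This count was 5 without H3.3 K36I or without H3.3 WT, 6 without H3.3 K36R, and 7 without H3.3 K36A, K36L or K36M. These fits called from 7.18% of all genes (without H3.3 K36M) to 11.2% (without H3.3 K36A). With histone as a covariate 20 passed, 9 higher and 11 lower, against 10.2% and 10.6% of all genes. None of the 15 NF-kB genes passed, and none had an unadjusted p under 0.05. The largest differences there were 0.67 (SE 0.31, adjusted p = 0.198) for Nfkb2 and -0.60 (SE 0.37, adjusted p = 0.339) for Nfkbiz. With histone as a covariate both passed, Nfkb2 with 0.54 (SE 0.09, adjusted p = 0.00576) and Nfkbiz with -0.76 (SE 0.11, adjusted p = 0.00306), as did Nfkbia, and 1 of the 15 was higher and 2 lower. Nfkb2 also passed without H3.1 K36R (0.90) and Nfkbiz without H3.1 K36M (-1.07). None of the 5 interferon factors passed either (1 with an unadjusted p under 0.05), with 0.60 (SE 0.24, adjusted p = 0.145) for Irf1 and 0.32 (SE 0.33, adjusted p = 0.587) for Irf9. Irf1 passed with histone as a covariate (0.515, SE 0.14, adjusted p = 0.0357) and without H3.1 K36R (0.80, SE 0.11, adjusted p = 0.00456). Of the other ligands none of 4 passed (1 with an unadjusted p under 0.05), with 1.002 (SE 0.44, adjusted p = 0.179) for Ccl9 and 0.44 for Ccl17. Ccl9 passed without H3.3 K36M (1.54). Ccl17 reached the filter only through the K36M and K36I lines, and its mean in the other 5 lines lay under it. Its differences, 0.44 with all lines and 0.61 without H3.1 K36M, are therefore given as a description.

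Of the inducing cytokines, receptors and adaptors 3 of 20 rose in the K36M and K36I lines and 3 fell, of the mRNA decay genes 2 of 7 fell, and 1 of the 2 sheddases fell. Il1rn, the interleukin-1 receptor antagonist, had 643, 471 and 239.9 normalised reads in H3.1 K36M, H3.3 K36M and H3.3 K36I, against 31168 in H3.1 K36R and 1209 to 6417 in the H3.3 K36A, K36L, K36R and WT lines. Its fitted difference was -3.39 (SE 0.84, adjusted p = 0.0314). Zfp36l1, a relative of Zfp36, had 607, 569 and 851 in the same 3 lines against 1771 to 2808 in the other 5, and fell by 1.53 (SE 0.17, adjusted p = 0.00107). Zfp36 itself fell by 0.64 (SE 0.14, adjusted p = 0.0182). Il1rap, a co-receptor for interleukin-1, fell by 1.23 (SE 0.30, adjusted p = 0.0277), and Tlr3, a sensor of double-stranded RNA, by 0.68 (SE 0.19, adjusted p = 0.0479). Tnfrsf1b rose by 0.82 (SE 0.21, adjusted p = 0.0363). Adam17 fell by 0.50 (SE 0.07, adjusted p = 0.00233), with 7941, 7177 and 6989 normalised reads in the 3 lines against 10024 to 10920.3 in the others. Of these 7 genes, Zfp36l1 and Adam17 passed under every alternative run. Leaving out H3.3 K36M ended the call of the other 5, and leaving out H3.3 K36I that of all of them but Tnfrsf1b (adjusted p up to 0.105 for Il1rn, 0.1 for Il1rap, 0.0755 for Zfp36, 0.17 for Tlr3 and 0.0856 for Tnfrsf1b). Leaving out H3.3 WT or H3.3 K36R ended the calls of Il1rn, Il1rap, Tlr3 and Tnfrsf1b. That of Tlr3 was also lost with no filter or with library medians set equal. Those of Tlr3 and Tnfrsf1b were lost without H3.3 K36A or K36L, that of Il1rn without H3.3 K36A, and those of Il1rap and Tnfrsf1b without H3.1 K36M.

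Of 23 chemokine receptors 6 passed the filter, with 1 higher in H3.1 and, in K36M and K36I lines, 1 higher and 1 lower, and of the 8 receptors followed as main receptors of the members 5 did not pass the filter. Cxcr3, the receptor of Cxcl10, had 0 reads in all 8 libraries. Cxcr2, the receptor of Cxcl1, Cxcl2 and Cxcl5, had at most 7.89 normalised reads, and Ccr6, the receptor of Ccl20, at most 9.54. Ccr2, the receptor of Ccl2 and Ccl7, had 0 in 5 of the lines, 1.70 in H3.3 K36I, 1.95 in H3.3 K36L and 34.4 in H3.3 K36M. Cxcr4, the signalling receptor of Cxcl12, had 5.10 to 47.9 and did not pass the filter, with its lowest values in H3.3 K36M (5.73) and H3.3 K36I (5.10). Ackr3, which takes up and removes Cxcl12, was abundant. It had 990 normalised reads in H3.1 K36M, 2412 in H3.3 K36M and 1775 in H3.3 K36I, against 3077 to 6178 in the other 5 lines, and fell by 1.39 in the K36M and K36I lines (SE 0.29, adjusted p = 0.0169). Cxcr6, the receptor of Cxcl16, had 467, 148 and 130.2 in the same 3 lines against 27.5 to 36.1 in the others, and rose by 1.395 (SE 0.27, adjusted p = 0.0106). Both calls held under every alternative in which the genes were tested. Cx3cr1, the receptor of Cx3cl1, had 239 normalised reads for H3.1 K36M and 107 for H3.1 K36R against 32.6 to 84.0 in the H3.3 lines, and rose by 0.76 in H3.1 (SE 0.17, adjusted p = 0.0303). It did not pass without H3.1 K36M, H3.3 K36M, K36I, K36L or WT (adjusted p up to 0.387).

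Most genes beside the members on the chromosome had too few reads to pass the filter, and those that passed did not all follow the members. Within 300 kb of Cxcl1, Cxcl2 and Cxcl5 lie 13 other protein-coding genes, of which Rassf6, Mthfd2l, Ereg and Areg passed the filter. Rassf6 had 556 and 269 normalised reads in the H3.1 K36M and H3.1 K36R lines, against 17.0 to 139.6 in the H3.3 lines, the same separation as Cxcl5 and Cxcl1. Mthfd2l varied between 702 and 910.4, and Ereg, an EGF receptor ligand, between 1441 and 5772 with overlapping groups. Areg, another EGF receptor ligand, had 165.6, 150.8 and 144.6 in H3.1 K36M, H3.3 K36M and H3.3 K36I, against 6.56 to 49.7 in the other 5 lines. Cxcl3, a further CXCR2 ligand between Cxcl5 and Cxcl1, had 0 reads in all libraries, and Ppbp, next to Cxcl5, at most 31.5. Around Ccl2 and Ccl7, 6 of the 7 other coding genes were in the table and none passed the filter. Ccl8, a related CC chemokine, had 304 normalised reads in H3.1 K36M (231 reads), against 8.75 in H3.1 K36R and 0 to 7.66 in the H3.3 lines, and Ccl12 had 0 in all.

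The genes most like a member over the 8 libraries were taken as those with the smallest root mean square difference of centred log2 values among about 11906 candidates. For Ccl2 the closest was its neighbour Ccl7 at 0.36, followed by Prl2c2 at 0.77 and Iigp1 at 0.89. For Cxcl1 they were Serpina3h at 0.41, Ankrd55 at 0.43 and Ntn1 at 0.44, all 3 higher in both H3.1 lines. Ntn1, for example, had 6620.1 and 7371 normalised reads in the H3.1 K36M and H3.1 K36R lines against 358 to 1223 in the H3.3 lines. For Cxcl12 they were Pcdhb11 and Runx1 at 0.27 each and Gdpd2 at 0.30. Runx1 had 2355 and 2176 in the H3.1 lines, 1137 and 1553 in H3.3 K36M and K36I, and 390.3 to 843 in the other H3.3 lines. For Cxcl10 they were Tgfb1 and Prps2 at 0.06 and Apaf1 at 0.07, which says little because Cxcl10 itself spanned 0.72 on this scale on 0 to 12 reads. The values share the same libraries and scaling, so these distances describe the lines and carry no test.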

How the data were processed

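RNA from 8 lines was sequenced with 1 library each (Trizol extraction, Illumina TruSeq, per the labels' protocols). The mouse build mm10, STAR 2.3.0e, featureCounts 1.4.4, DESeq2 and Trimmomatic 0.32 are named in the submitters' processing notes. Their order and settings, the gene models and the use of strand were not given in the sources used here. Each deposited value is a log2 number whose form fits DESeq2's variance-stabilising transformation, applied by the authors to reads scaled by library and not corrected for gene length. The lowest value, 5.95, stands for 0 reads. Inverting the transformation gave whole reads for 100.0% of values within 0.001 reads, and from them normalised reads and depth.

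Tests took 14215 of 31276 genes, those whose mean exceeded the lowest value by 1 or more (31.0 normalised reads). Deposited values were fitted in limma 3.58.1 (R 4.3.3) with the trend option, two-sided, with Benjamini-Hochberg adjustment at 0.05 over all genes tested. H3.1 (2 lines) against H3.3 (6) had the K36M or K36I substitution as a term, and K36M and K36I (3 lines) against the others (5) had no covariate. Lines of a group carry different transgenes, so each p-value reflects the spread among lines, which may in part be technical. The fits were tested on simulated data. Alternatives were other filters, scalings and scales, no trend, other sets of lines and leaving out each line.

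The 10 chemokines, the 7 pathway lists and the tests were chosen with earlier results of these data known. A further gene is not reported here. Text names all members, their receptors, the up to 4 called genes of each list with the largest difference or, with none, the top 2 said not to pass, the 3 genes most like Cxcl1, Ccl2, Cxcl10 and Cxcl12, and cluster neighbours within 300 kb. Poisson intervals (95%) and the limit of 3 reads for a count of 0 cover counting error only. They take reads as independent, yet 9179 values were 2 reads and only 3074 were 1 read, with 4544 at 4 and 1853 at 3. If mates of a pair were counted apart, which is not given, the intervals are too narrow.

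Coordinates are GENCODE M21 (GRCm38, the assembly behind mm10) and promoters RefSeq GRCm38.p6, matched by symbol, with windows for 6 members. How reads matching several paralogous genes were handled is not given. Cxcl10 shares 133 exon bases with Art3 on the opposite strand. Exons of Bcl3, Irf1, Irf9, Ifnar2, Zfp36, Zfp36l1, Il1rap, Tlr3, Adam17, Nfkb2, Cx3cr1 and Ccl25 also overlap another gene, and their reads there cannot be separated. Python 3.11.15 with scipy 1.17.1 computed intervals.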

Additional observations from a re-analysis of the deposited data

Results flagged for a closer look

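Within groups of 4 to 10 libraries, a value was marked where its gap to the nearest other library, as a share of the group's whole range on the deposited log2 scale, passed Dixon's 95% limit. Among 19 groups of members examined, 7 held such a value. The limit is set to mark about 1 in 20 groups by chance, for genes picked without their values in view. These members were picked with their values known, so nothing is read from the count. H3.1 K36R was the high library among the 5 without K36M or K36I for Cxcl1 (share 0.739, 7290.4 normalised reads), Cxcl5 (0.837, 10180.1), Ccl7 (0.763, 2773) and Cx3cl1 (0.799, 1625). It is the only H3.1 library in that group. Among the 6 H3.3 libraries, K36I was high for Ccl7 (0.705, 1827 normalised reads), K36R for Ccl20 (0.69, 41.8) and K36M for Cxcl2, whose share of 1.0 rests on 2 reads against 0 elsewhere.

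For 4 members K36M minus K36R had opposite signs in the 2 histones. The difference in H3.1 less that in H3.3 was 3.121 for Ccl2, 1.972 for Ccl7, -1.177 for Cx3cl1 and -0.976 for Cxcl12 on the deposited log2 scale. Each rests on 4 libraries with 1 line a side, and the difference was not tested.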

How the results depend on the processing

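Libraries could not be paired by replicate number, since the labels give none that groups share. The fit on the K36M and K36R lines, with the substitution as a term, pairs H3.1 and H3.3 by substitution. Leaving out each line in turn gave 183 to 1934 genes called between H3.1 and H3.3 (1567 with all lines), 10 to 20 list genes (19) and 3 to 5 members (5). It gave 1021 to 2084 genes between the K36M and K36I lines and the others (1887), 5 to 14 list genes (11) and 0 to 1 members (0). Counts moved by over 1.5 times between H3.1 and H3.3 without H3.1 K36M (183 genes, 10 list genes), H3.3 K36I (574), K36M (769), WT (791) or K36L (836), and between the classes without H3.3 K36M (1021), WT (1211) or K36I (1245). Without an H3.1 line the other is assumed to vary as the H3.3 lines do. The K36M and K36R lines alone gave 12 genes between H3.1 and H3.3, 0 list genes and 2 members. With histone as a covariate the class fit gave 2959 genes (20.8% of those tested), 20 list genes and 1 member (Cxcl5). In the H3.3 lines alone, added after seeing the data, it gave 2545 genes (17.9%), 20 list genes and 2 members (Cxcl5 and Cx3cl1). With no filter the share of higher among called genes moved to 58.8% between H3.1 and H3.3 (791 higher, 554 lower) and to 60.9% between the classes, and with medians set equal to 58.9% between the classes.

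Signs turned in the class fit for Cxcl1 (-0.30 with histone as a covariate, -0.32 in H3.3 alone, -0.96 to 0.85 leaving out lines) and Cxcl16 (-0.047 in H3.3 alone, -0.15 to 0.42 leaving out lines). Between H3.1 and H3.3 they turned for Cx3cl1 (-0.29 to 0.93 leaving out lines) and Adam10 (-0.014 in the K36M and K36R lines alone). None of these was past the threshold with all lines. On the log2 of normalised reads plus 1, members at least 1 apart from WT numbered 4 in H3.3 K36M, 6 in K36I, 4 in K36A, 4 in K36L and 3 in K36R, and 4 between H3.3 K36M and K36R, since that scale does not compress low counts. The causes of the other changes were not tested. Depth limits Cxcl2, Cxcl10 and, in H3.3 lines, Ccl20.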

Other observations

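Ccr7, a chemokine receptor whose ligands Ccl19 and Ccl21 were not among the members, had 608 normalised reads in H3.3 K36M and 366 in H3.3 K36I. The other lines had 15.3 to 84.8, including 35.5 in H3.1 K36M, so the high values were found in the H3.3 lines with K36M or K36I and not in the H3.1 line with K36M. It passed the threshold in neither fit but did with histone as a covariate between the classes, and was named after its values were seen.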
